A study of Mus musculus with 37 samples.

Results

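The data compare mouse cardiac fibroblasts (CFs) in conditioned medium of heart muscle cells that had received recombinant ENPP1 together with ATP (ENPP1+ATP MCndM) with CFs in medium of heart muscle cells that had received ATP alone (ATP MCndM). The members are all 8 CF libraries that the labels place in these media at 24 h and 48 h, 4 of each medium with 2 per time, out of 20 CF libraries and 37 samples in the series. The medium (MCndM, myocyte-conditioned medium) was collected from neonatal rat ventricular myocytes (NRVM) after 24 h with the agents, and was put on CFs grown in a dish of their own. The comparison asks what ENPP1 added to the myocytes changes in the CFs when ATP is present, with time held equal. The other 12 CF libraries came from vehicle, ENPP1 and AMP MCndM at the same times and are used where they bear on this comparison.

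All of these CFs carry the label of immortalized wild-type cells of C57BL/6 background. The study's methods immortalized its CFs with the SV40 antigen, whose large T protein is known to bind p53 and the retinoblastoma protein, so every group shares that background. Cells were plated sparsely and held without serum before the medium was added. The study's methods call its replicates biological in general, but how those of these libraries were prepared, and from how many clones the line arose, was not given in the sources used here, so the p-values measure the spread between these samples.

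ENPP1 is an ectoenzyme on the cell surface that splits extracellular ATP into AMP and pyrophosphate, and extracellular ATP rises where tissue is injured. p53 is a transcription factor that answers damage to DNA and shortage of nucleotides by raising genes for cell-cycle arrest and cell death, and Mdm2, one of its own targets, limits it. SREBP2 is a membrane-bound factor that is cut loose when sterols run low and raises the genes of cholesterol synthesis. Genes of mitosis are kept down in resting cells through repressor complexes that sit at a promoter element called the CHR, interferon-stimulated genes (ISGs) carry an element called the ISRE, and ATF4, the factor of the amino acid response, binds the CARE.

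The promoters of 4 genes that stand for gene groups treated in the results are shown with these letters in capitals, because each stands for a group that moved and holds the letters its regulator is known to bind. Each is 300 bases, from 250 before to 50 after the start of the RefSeq gene, taken from the RefSeq promoter table (GRCm38.p6) and written 5′ to 3′ on the strand of the gene. Hmgcs1, HMG-CoA synthase of the cholesterol pathway, lies at chr13:119690101-119690400 on the plus strand, and the SREBP letters TCACCCCAC begin 137 bases before the start. Mki67, the proliferation marker Ki-67, lies at chr7:135716330-135716629 on the minus strand, with the CHR letters TTTGAA at 116 and 98 bases before the start. Oas3, an interferon-induced oligoadenylate synthetase, lies at chr5:120777610-120777909 on the minus strand, with the ISRE letters (GAAA, any 2 bases, GAAA) at 75 bases before the start. Slc7a11, the cystine transporter, lies at chr3:50443564-50443863 on the minus strand, with the CARE letters TGATGNAA at 66 and, on the opposite strand, 47 bases before the start.
Hmgcs1: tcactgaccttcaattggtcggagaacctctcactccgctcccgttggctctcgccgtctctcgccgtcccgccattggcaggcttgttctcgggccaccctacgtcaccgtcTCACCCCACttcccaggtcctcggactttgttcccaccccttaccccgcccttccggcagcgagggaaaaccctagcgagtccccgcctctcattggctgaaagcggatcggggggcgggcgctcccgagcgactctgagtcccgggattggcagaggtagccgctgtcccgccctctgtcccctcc
Mki67: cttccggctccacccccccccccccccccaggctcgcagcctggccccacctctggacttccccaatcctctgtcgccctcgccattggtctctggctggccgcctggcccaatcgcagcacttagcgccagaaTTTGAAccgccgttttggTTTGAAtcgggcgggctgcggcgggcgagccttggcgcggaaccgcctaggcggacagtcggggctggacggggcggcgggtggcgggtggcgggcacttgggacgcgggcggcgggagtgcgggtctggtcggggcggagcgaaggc
Oas3: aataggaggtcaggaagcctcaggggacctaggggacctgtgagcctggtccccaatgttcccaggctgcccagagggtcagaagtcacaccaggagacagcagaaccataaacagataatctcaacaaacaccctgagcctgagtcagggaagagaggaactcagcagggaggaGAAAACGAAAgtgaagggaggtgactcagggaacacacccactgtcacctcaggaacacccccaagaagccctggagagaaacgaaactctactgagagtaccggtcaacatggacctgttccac
Slc7a11: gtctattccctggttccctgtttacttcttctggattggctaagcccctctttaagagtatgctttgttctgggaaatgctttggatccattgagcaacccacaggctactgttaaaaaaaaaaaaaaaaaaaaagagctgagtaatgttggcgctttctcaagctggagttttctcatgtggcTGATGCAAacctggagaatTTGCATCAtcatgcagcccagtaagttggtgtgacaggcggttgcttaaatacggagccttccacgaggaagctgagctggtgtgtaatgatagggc

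Promoters were found for 11493 of the tested genes, in 14643 windows, and each window was searched for the letters on both strands. Some genes had several windows. A gene was counted where any of its windows held the letters, so the promoter counts and shares below are of genes. TTTGAA stood in 35 of 47 mitosis promoters (74.5%) and in 14.4% of all promoters. The ISRE letters stood in 15 of 26 ISG promoters (57.7%) against 3.8% of all, and TGATGNAA in 11 of 30 promoters of ATF4 targets (36.7%) against 2.8% of all. TCACCCCAC, a single spelling of the SREBP site, stood in 1 of 22 cholesterol promoters (4.5%) against 0.7% of all, and the letters CCAAT stood in 19 of those 22 (86.4%) against 42.4% of all. CCAAT was also in 36 of 47 mitosis promoters (76.6%). A match describes the letters of the window and does not show a bound site.

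The 8 libraries held 38478640 to 49859176 counted reads and 19775 to 22824 detected genes, and the 20 CF libraries 32184799 to 115824659 reads. The first principal component over the 20 libraries took 38.5% of the variance and the second 15.6%. The ENPP1+ATP 48 h replicates lay apart from each other on the fourth component (5.79% of the variance), at -34.5 and 59.0. Reads of mitochondrial genes made up 2.02 to 2.26% of the ATP libraries, 2.79 and 3.34% of ENPP1+ATP at 24 h and 5.30 and 5.37% at 48 h. Mitochondrial ribosomal RNA was 2.32 and 2.52% of the ENPP1+ATP reads at 48 h against 0.219 and 0.407% of the ATP reads. The part of these differences in the gene results was not tested.

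Of the cell type lists the fibroblast markers had the highest summed level in every library, although 2 of the 12, Lum and Thy1, were under 1 CPM (read counts scaled to equal library size) throughout. Their summed level was 5914 to 5969 CPM at 24 h and 6861 to 7253 CPM at 48 h in ENPP1+ATP, and 8290 to 8786 and 10059 to 10179 CPM in ATP, so the groups did not overlap. Most of the sum was Col1a1, Col3a1, Col1a2, Vim and Fbln2, and Vim, the filament protein vimentin, went the other way at 48 h (2010 and 2122 against 1735 and 1717 CPM). In bulk RNA, fewer cells of a type and less RNA per cell cannot be told apart. The summed macrophage list stood at 25.5 to 32.9 and 61.0 to 71.0 CPM in ENPP1+ATP against 10.6 to 11.1 and 11.0 to 14.1 CPM in ATP, yet 9 of its 12 genes were under 1 CPM, and among these Adgre1, Ptprc, C1qa and Itgam were at or near 0. Its called members were Cd68, a lysosomal membrane protein (log2 difference 2.54, SE 0.11), and Csf1r, the receptor of macrophage colony-stimulating factor (1.81, SE 0.18). Lyz2 lay at 3.94 to 5.12 CPM in ENPP1+ATP and 3.47 to 4.82 CPM in ATP, and was not called in the mean of both times. Smooth muscle and pericyte markers summed to 90.4 to 105 CPM in ENPP1+ATP and 50.9 to 60.0 CPM in ATP. Most of either sum was Smtn, smoothelin (80.4 to 101 and 48.0 to 58.2 CPM), and 7 of the 10 markers were under 1 CPM in ENPP1+ATP and 8 in ATP. Cardiomyocyte markers (18.9 to 19.5 against 18.2 to 23.5 CPM) and endothelial markers (21.7 to 23.1 against 20.5 to 24.4 CPM) overlapped between the media at 24 h. At 48 h both sums were lower in ENPP1+ATP without overlap (18.0 to 20.9 against 22.1 to 29.6 CPM, and 16.4 to 20.1 against 20.7 to 22.9 CPM). Most of the endothelial sum at 48 h was Flt1 (9.94 and 12.2 against 15.5 and 14.1 CPM), and 7 of the 10 markers were under 1 CPM in either medium. Tek, another endothelial marker, went the other way at 48 h (2.64 and 3.49 against 1.65 and 1.465 CPM).

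Added ENPP1 changed the CF transcriptome broadly when ATP was present. Averaged over both times, 4269 of 17879 tested genes rose and 4647 fell (edgeR quasi-likelihood test, Benjamini-Hochberg adjusted p under 0.05), so 49.9% of all genes were called (23.9% higher and 26% lower), and a list has to be read against that background. Most changes were small. The median absolute log2 difference was 0.28 and the median difference -0.01, and 661 genes rose and 621 fell by 2-fold or more. In 3272 genes (18.3%) every ENPP1+ATP library was above every ATP library of its time, and in 3656 (20.4%) every one was below. At 24 h 3898 genes were higher and 3948 lower (43.9%, 21.8% higher and 22.1% lower), and at 48 h 3247 higher and 3812 lower (39.5%, of which 18.2% higher and 21.3% lower). Without either of the ENPP1+ATP 48 h libraries that lay apart, the mean of both times gave 4073 or 4142 genes higher and 4693 or 4690 lower.

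**Figure D1:**
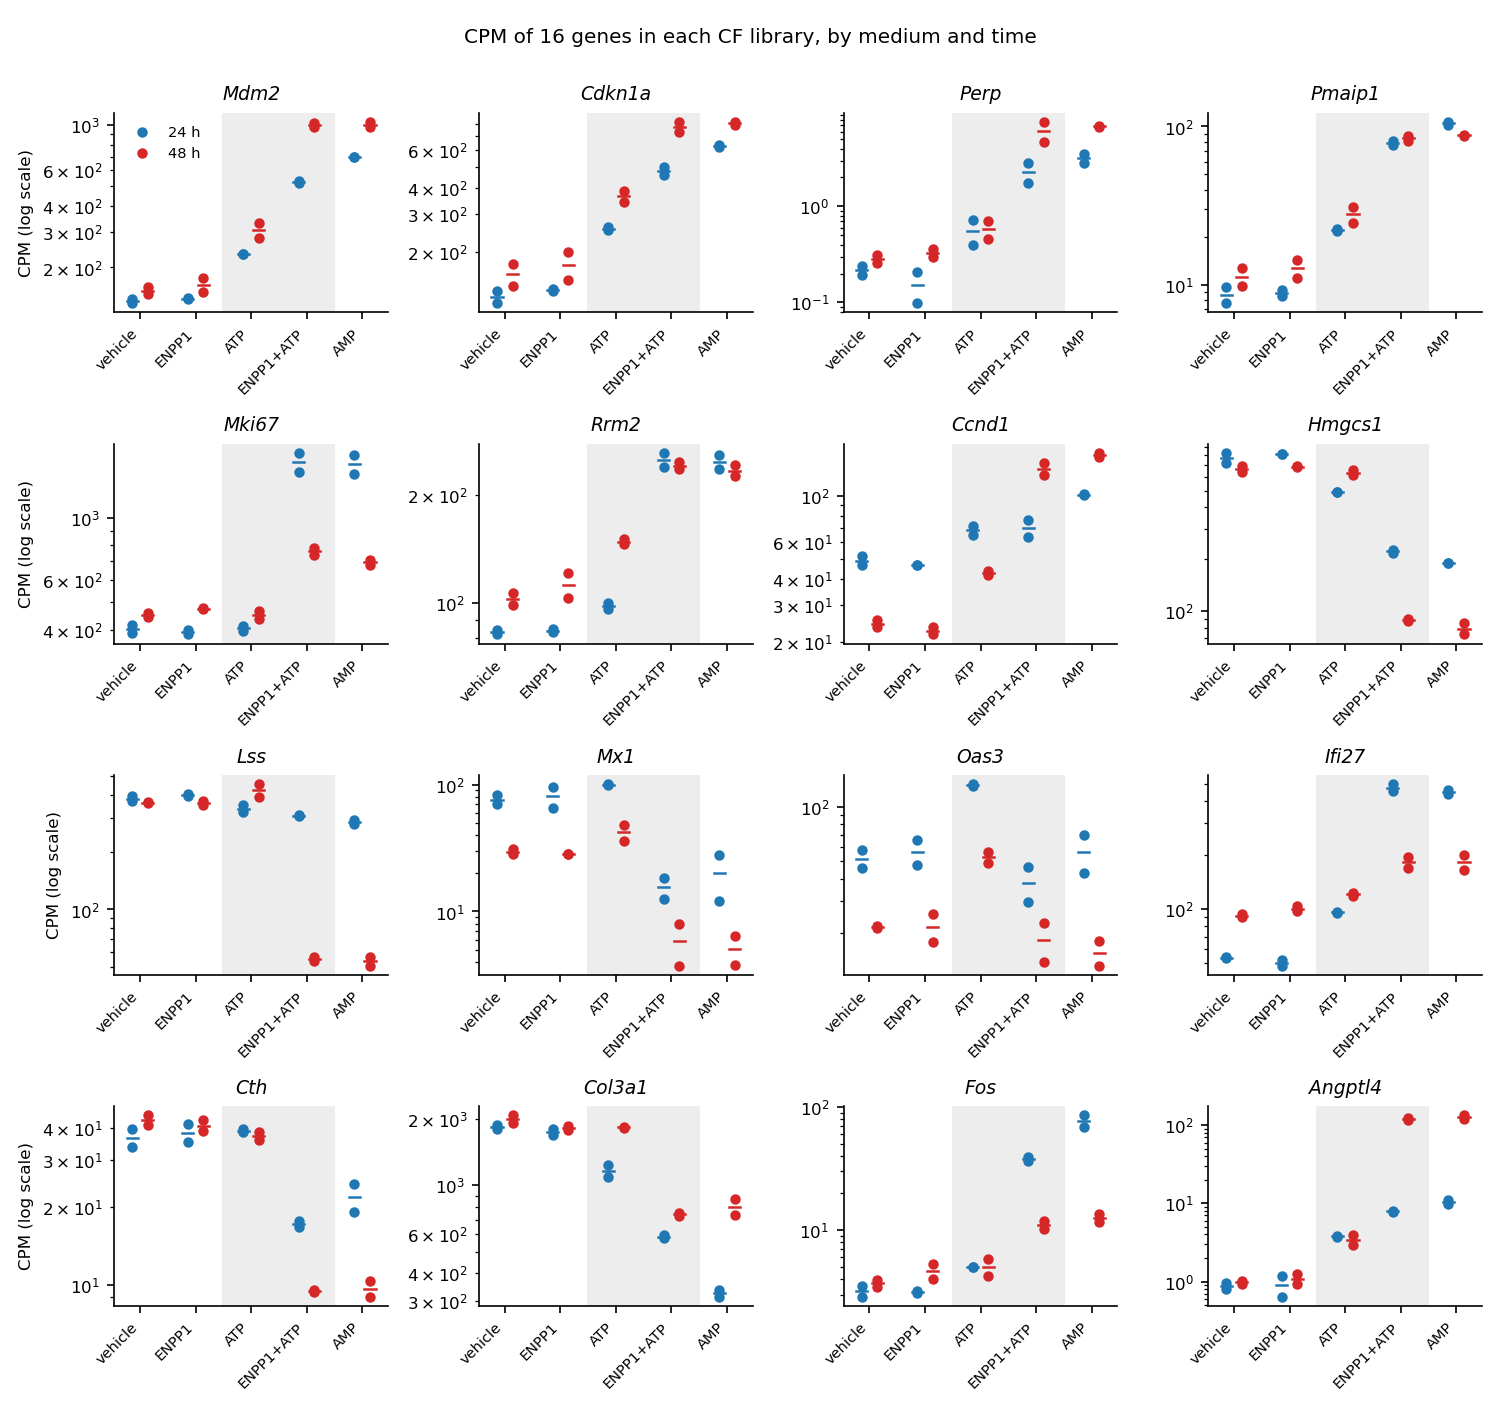
CPM on a log axis of 16 genes in the 20 CF libraries by medium, with 24 h in blue, 48 h in red, a bar for each mean and a grey band over ATP and ENPP1+ATP. Mdm2 is higher in every ENPP1+ATP library (521 to 1025 CPM) than in any ATP library (232 to 329 CPM), and Mx1 is lower (3.74 to 18.4 against 36.2 to 101 CPM).

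p53 target genes of feedback and arrest rose as a group. Of 40 such genes, 34 rose and 3 fell, with a median log2 difference of 0.64 against -0.01 over all genes. At 24 h 32 rose and 3 fell, and at 48 h 30 rose and 4 fell. Relative to the mean ATP library, the list median was 0.45 and 0.48 in the ENPP1+ATP libraries at 24 h and 0.86 and 0.82 at 48 h, and it lay between -0.12 and 0.17 in the ATP libraries.

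Mdm2, the ubiquitin ligase that limits p53 (chr10:117688875-117710758, minus strand, mm10), stood at 529.9 and 521 CPM in ENPP1+ATP and 232 and 232 CPM in ATP at 24 h, and at 982 and 1025 against 329 and 279 CPM at 48 h. The media did not overlap at either time. The difference was 2.73-fold (log2 1.45, SE 0.05, adjusted p = 1.04e-16) and larger at 48 h than at 24 h (log2 1.72 and 1.18, adjusted p of the change = 1.10e-04). Cdkn1a, the p21 inhibitor of cyclin-dependent kinases (chr17:29090976-29100727, plus strand), was at 461 and 498 CPM against 261 and 253 at 24 h and at 731 and 816 against 387 and 343 at 48 h. Each ENPP1+ATP library exceeded all 4 ATP libraries, and the rise was 1.99-fold (log2 0.99, SE 0.10, adjusted p = 3.72e-06). Btg2, an antiproliferative p53 target, was at 163 and 176 against 56.0 and 59.2 CPM and later at 169 and 178 against 74.7 and 63.8 CPM, a 2.71-fold rise (adjusted p = 7.66e-12). Gtse1, which holds p53 in check during G2, rose 2.65-fold (log2 1.41, SE 0.06). Trp53 itself stood at 217 and 218 against 207 and 205 CPM at 24 h, where the difference missed the threshold (log2 0.08, adjusted p = 0.138), and at 275 and 274 against 203 and 208 CPM at 48 h, where it rose (log2 0.42, adjusted p = 1.75e-08). Members that fell were Tap1, a peptide transporter of antigen presentation (log2 -0.72), Cd82, a tetraspanin (-0.48), and Gadd45a, a stress sensor of growth arrest (-0.66, SE 0.05, adjusted p = 1.25e-10). Gadd45a was at 27.2 and 31.4 against 35.3 and 34.9 CPM at 24 h and 19.4 and 17.9 against 38.4 and 39.6 CPM at 48 h, below ATP throughout. Tigar, Sesn1 and Rrm2b did not pass the test in the mean of both times. Rrm2b, a p53-induced subunit of ribonucleotide reductase, was at 41.6 and 43.7 against 27.6 and 32.7 CPM at 24 h, where it rose (log2 0.50, adjusted p = 1.67e-04), and at 30.4 and 25.03 against 30.6 and 32.8 CPM at 48 h (-0.19, adjusted p = 0.143), a change that passed the test (-0.69, adjusted p = 5.74e-04). Its mean difference (log2 0.16, adjusted p = 0.0673) was called under DESeq2 (adjusted p = 0.0486) and 5 other alternatives, from 0.0122 to 0.0499.

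Genes of cell death moved in both directions. Of 31 tested effectors 15 rose and 6 fell (median log2 difference 0.15), and a fit of these 8 libraries alone with time and medium as additive terms called 9 higher. Perp, a p53-induced tetraspan protein of the plasma membrane (chr10:18845020-18857073, plus strand), was at 1.74 and 2.85 against 0.392 and 0.722 CPM at 24 h and at 4.64 and 7.6 against 0.703 and 0.455 CPM at 48 h. It was low in every library and 6.55-fold higher in ENPP1+ATP (log2 2.71, SE 0.24, adjusted p = 9.34e-10). Pmaip1, which encodes the BH3-only protein NOXA, was at 76.0 and 81.4 against 22.4 and 21.9 CPM and at 81.5 and 87.6 against 31.2 and 24.6 CPM, a 3.28-fold rise (adjusted p = 1.42e-10) with no overlap. Bax, a pore former of the mitochondrial outer membrane, was at 58.2 and 64.4 against 58.1 and 51.4 CPM at 24 h, where the test was not passed (adjusted p = 0.0517), and at 89.3 and 89.8 against 65.8 and 64.2 CPM at 48 h, a rise of 0.46 on the log2 scale (adjusted p = 3.12e-06). The death receptor gene Fas stood at 27.7 and 29.2 against 20.8 and 18.7 CPM and at 46.7 and 53.01 against 36.1 and 31.0 CPM (log2 0.55, SE 0.06, adjusted p = 3.12e-08). Further rises were in Pidd1, scaffold of the caspase-2 complex (log2 1.27), Dapk1, death-associated protein kinase (1.05), Tnfrsf10b, the TRAIL receptor (0.67), Aen, a nuclease (0.58), and Apaf1, core of the apoptosome (0.44).

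Bbc3, the BH3-only protein PUMA, did not pass the test in the mean of both times (log2 0.05, SE 0.07, adjusted p = 0.615). Bbc3 lay between 30.4 and 35.5 CPM in ENPP1+ATP and between 27.3 and 34.6 CPM in ATP. Bak1, the partner of Bax, differed by -0.03 in the mean (SE 0.04, adjusted p = 0.581), but stood at 158 and 172 against 198 and 182 CPM at 24 h, where it fell (log2 -0.20, adjusted p = 8.48e-03), and at 157 and 169.6 against 149 and 147 CPM at 48 h (0.14, adjusted p = 7.38e-02). Neither time overlapped, and the change between the times of Bak1 passed the test (0.34, adjusted p = 3.99e-03). Among the effectors that fell were Bmf, a BH3-only protein (log2 -1.25), Htra2, Casp9, Bad and Aifm2. Bmf stood at 4.11 and 4.01 against 11.6 and 9.75 CPM at 24 h and at 4.84 and 4.84 against 10.3 and 10.6 CPM at 48 h, so that each ENPP1+ATP library was below all ATP libraries. Of 12 tested anti-apoptotic genes 4 rose and 3 fell (median log2 difference -0.03). Bcl2, the founding survival gene of the family, was at 10.03 and 12.04 against 17.2 and 19.4 CPM and at 13.8 and 17.5 against 18.1 and 19.8 CPM, and fell (log2 -0.50, SE 0.07, adjusted p = 3.64e-06). Bcl2l2 (log2 -0.65) and the inhibitor of apoptosis Birc3 (-0.29) also fell, while Bcl2l1, which encodes BCL-XL (0.47), Bag3 (0.35), Mcl1 (0.17) and Birc5, survivin and also a mitotic protein (0.49), rose.

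Mitosis genes rose as a group. Of 57 tested, 55 rose and none fell in the mean of both times (median log2 difference 0.57), with Cenpk and Pttg1 short of the threshold. At 24 h 56 rose and none fell, and at 48 h 48 rose and 3 fell. The 3 that fell at 48 h were Cenpk (log2 -0.44), a kinetochore protein, Pbk (-0.40), a mitotic kinase, and Mybl2 (-0.38), a factor of cell-cycle promoters, which were named after their values were seen. The list median per library, relative to the mean ATP library, was 0.75 and 0.77 in ENPP1+ATP at 24 h and 0.39 and 0.31 at 48 h, against -0.10 to 0.08 in ATP. Mki67 (chr7:135689784-135716361, minus strand), whose promoter with its pair of CHR matches is printed above, was at 1699 and 1452 against 396 and 412 CPM at 24 h and at 781 and 738 against 438 and 466 CPM at 48 h. All ENPP1+ATP libraries were above all ATP libraries. The rise was 3.9-fold at 24 h and 1.68-fold at 48 h, and the change between the times passed the test (log2 -1.22, SE 0.10, adjusted p = 3.31e-09). Kif18b, a kinesin of the mitotic spindle, was steadier, at 190.0 and 189.9 against 94.1 and 95.0 CPM and at 206 and 195 against 87.7 and 84.7 CPM (log2 1.11, SE 0.04, adjusted p = 2.77e-17). The rise of Cenpn, a kinetochore protein, was 1.04 on the log2 scale.

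DNA replication genes rose at 24 h but not as a group at 48 h. At 24 h 37 of 50 tested genes rose and 2 fell (median log2 difference 0.34), and at 48 h 11 rose and 14 fell (median -0.01). The counts at 48 h depended on single libraries, with 7 higher without ATP 48 h replicate 1 and 8 lower without ATP 48 h replicate 2. The count of 35 rises in the mean of both times became 19 in the additive fit of 8 libraries. Pole, catalytic subunit of the leading-strand polymerase (chr5:110286306-110337474, plus strand), was at 324 and 300.2 against 157 and 163 CPM at 24 h and at 212 and 208 against 186 and 188 CPM at 48 h, so the media were well apart at 24 h and close at 48 h (change between times -0.80 on the log2 scale, adjusted p = 1.43e-08). Ticrr and Mcm10, which act in origin firing, rose by 0.70 and 0.56 on the log2 scale. Mcm2, a subunit of the replicative helicase, was at 447 and 437 against 432 and 437 CPM and at 455 and 470.0 against 460.4 and 469.6 CPM, barely apart at 24 h and overlapping at 48 h, with a log2 difference of 0.01 (SE 0.03, adjusted p = 0.837).

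Genes of the DNA damage response rose in 39 of 59 cases and fell in 5 in the mean of both times (median log2 difference 0.23). At 24 h 40 rose and 5 fell (median 0.35), and at 48 h 25 rose and 7 fell (median 0.13). Between the times the difference moved downward in 28 of the 59 genes and upward in 4. In the mean, Mdc1, a mediator at broken ends, and Brca1 rose by 0.95 and 0.72 on the log2 scale, and Prkdc, the kinase of end joining, fell (-0.36).

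Cyclins, kinases and their inhibitors gave 19 rises and 10 falls among 34 genes in the mean of both times (median log2 difference 0.20), with 19 and 9 at 24 h and 9 and 11 at 48 h (median 0.04). Ccnd1, the G1 cyclin D1 (chr7:144929931-144939925, minus strand), was at 63.7 and 76.6 against 71.5 and 65.0 CPM at 24 h, with overlap, and at 125 and 144 against 41.8 and 43.7 CPM at 48 h, without overlap. Its difference was log2 0.04 at 24 h (adjusted p = 0.729) and 1.65 at 48 h (SE 0.08, adjusted p = 1.05e-13), and the change passed the test (1.61, SE 0.11, adjusted p = 2.77e-10). The mean of both times for Ccnd1 lost its call in the additive fit (adjusted p = 0.0741), which takes the change with time as error. The inhibitors of this list, which does not hold Cdkn1a, fell, among them Cdkn2b (log2 -0.90), Cdkn2a (-0.72), Cdkn1c (-0.65) and Cdkn1b (-0.56). Cdkn2a, which encodes p16 and p19ARF, was at 107 and 113 against 181 and 169 CPM and at 122 and 116 against 195 and 208 CPM. Myc, a driver of growth, was at 47.6 and 52.0 against 84.6 and 75.5 CPM and at 55.5 and 52.8 against 58.7 and 67.9 CPM, lower in each ENPP1+ATP library (log2 -0.45, SE 0.05, adjusted p = 2.54e-08).

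**Figure D2:**
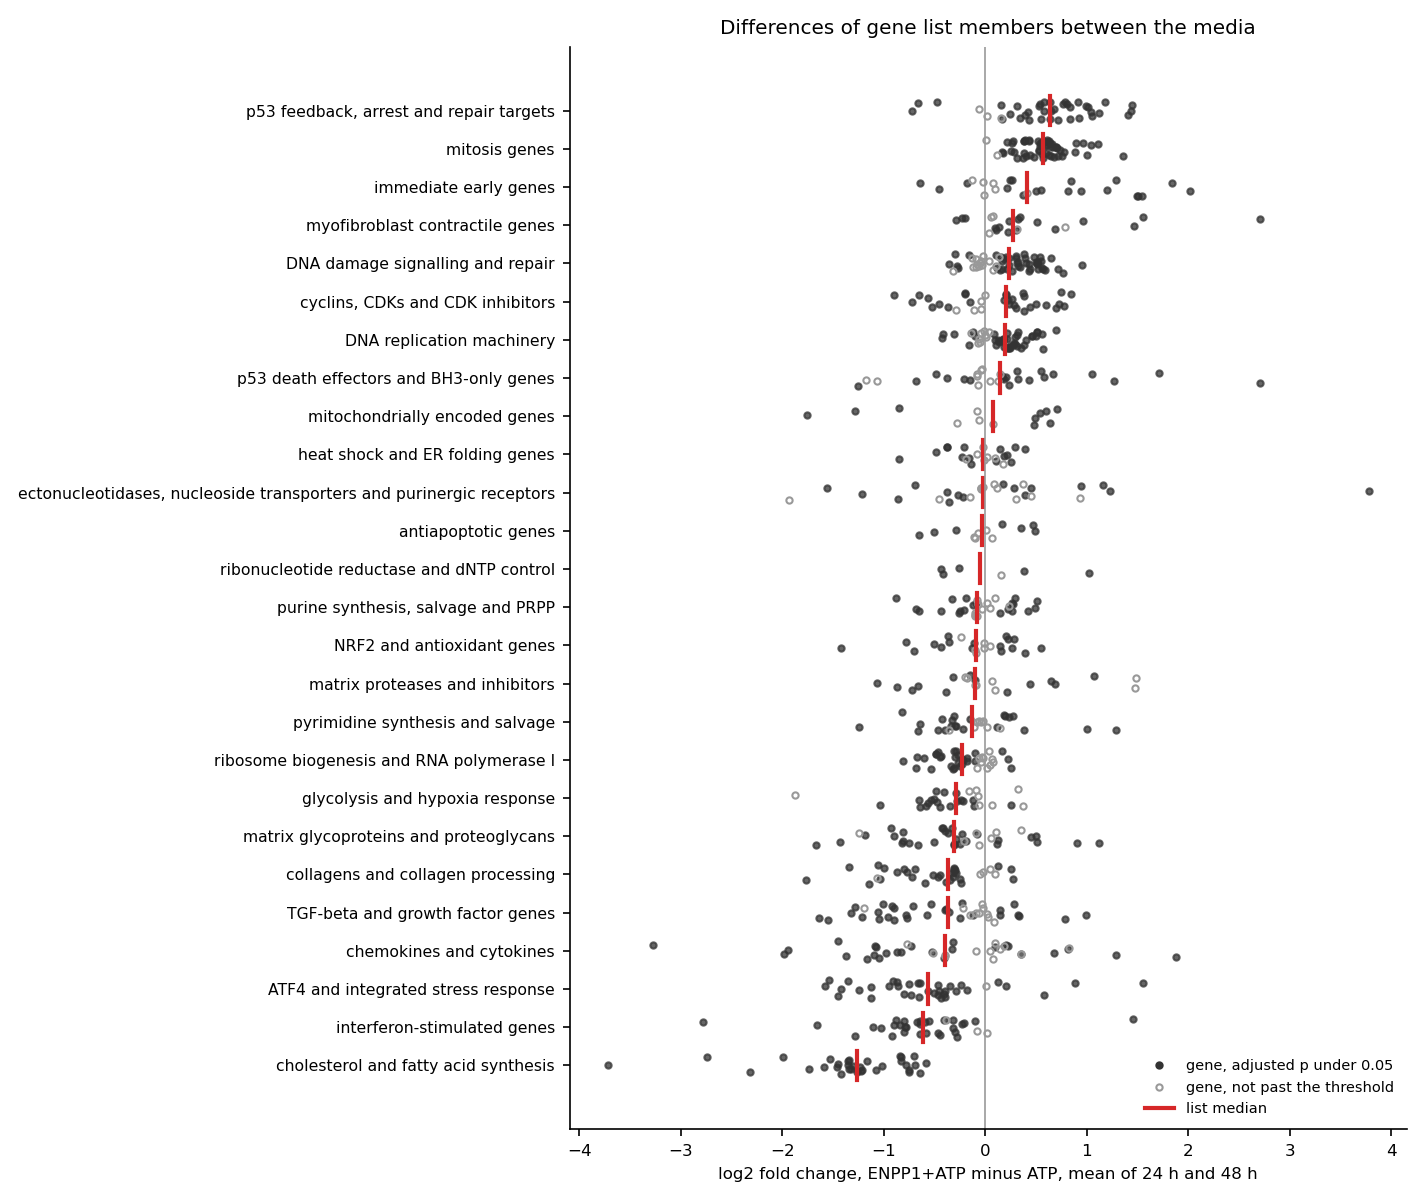
Log2 difference between ENPP1+ATP and ATP (mean of both times) of every tested member of 26 gene lists, filled where the adjusted p was under 0.05, with a red bar at each median. The cholesterol list lies wholly below 0 (median -1.27), mitosis wholly above it (median 0.57), and the nucleotide lists straddle it.

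Genes of nucleotide metabolism moved in both directions. Pyrimidine genes rose in 8 and fell in 14 of 30 cases in the mean of both times (median log2 difference -0.13), and at 48 h more fell than rose, with 10 higher and 12 lower at 24 h and 4 higher and 16 lower at 48 h (median -0.24). The 8 rises in the mean became 5 in the additive fit, and the 4 at 48 h became 2 without ENPP1+ATP 48 h replicate 2. Purine genes rose in 9 and fell in 11 of 31 cases (-0.08), with 6 and 10 at 24 h and 7 and 5 at 48 h. With total counts as the only scaling 11 were lower at 48 h. The ribonucleotide reductase and nucleotide-pool genes rose in 2 and fell in 3 of 6 cases (-0.05). Umps, the last enzyme of UMP synthesis, was at 106 and 104 against 89.9 and 87.8 CPM and at 97.0 and 97.9 against 84.8 and 92.4 CPM, a small rise (log2 0.19, SE 0.03, adjusted p = 4.10e-05). Dhodh, the mitochondrial step before it, was at 11.0 and 13.8 against 18.2 and 17.4 CPM and at 11.5 and 14.4 against 16.6 and 17.8 CPM, and fell (log2 -0.47, SE 0.09, adjusted p = 1.01e-04). Uck2, which salvages uridine and cytidine, fell (log2 -0.30, SE 0.04, adjusted p = 4.25e-07). Upp1, which cleaves uridine, stood at 3.72 and 3.03 against 1.76 and 1.51 CPM and at 3.65 and 3.71 against 1.37 and 1.16 CPM, and rose (log2 1.29, SE 0.17, adjusted p = 7.89e-07). Aprt, which salvages adenine into AMP, was at 65.4 and 68.9 against 87.8 and 80.7 CPM at 24 h and at 126 and 132 against 84.3 and 82.6 CPM at 48 h. It was thus lower in both libraries at 24 h (log2 -0.33, adjusted p = 9.21e-05) and higher in both at 48 h (0.62, adjusted p = 7.74e-09), and the change passed the test (0.95, adjusted p = 1.15e-08). Rrm2, the small subunit of ribonucleotide reductase, which makes deoxynucleotides (chr12:24708241-24714146, plus strand), was at 261 and 239 against 100.1 and 96.6 CPM and at 235 and 247 against 151 and 146 CPM. Its rise (log2 1.02, SE 0.05, adjusted p = 4.96e-15) was larger at 24 h than at 48 h (change -0.65, adjusted p = 6.40e-06).

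Genes of extracellular nucleotides, their receptors and nucleoside transporters rose in 8 and fell in 8 of 29 cases, or fell in 5 in the additive fit. The cells' own Enpp1 (chr10:24637914-24712159, minus strand) was at 24.1 and 21.8 against 7.07 and 6.45 CPM at 24 h and at 9.89 and 9.04 against 5.83 and 7.04 CPM at 48 h. It was higher in every ENPP1+ATP library (log2 1.16, SE 0.10, adjusted p = 8.55e-10), and less so at 48 h (change -1.20, adjusted p = 8.20e-05). Nt5e, the CD73 enzyme that turns AMP into adenosine, was at 0.441 and 0.407 against 1.02 and 0.931 CPM and at 0.275 and 0.785 against 1.89 and 2.05 CPM, and fell (log2 -1.56, SE 0.29, adjusted p = 8.38e-05). Slc29a4, a transporter of adenosine and monoamines (chr5:142692512-142722490, plus strand), was at 1.74 and 2.13 against 0.131 and 0.163 CPM and at 4.89 and 4.09 against 0.462 and 0.126 CPM. From a very low level in ATP it was 13.7-fold higher (log2 3.78, SE 0.28, adjusted p = 3.04e-11).

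Every tested gene of cholesterol and fatty acid synthesis fell. All 33 passed the test in the mean of both times (median log2 difference -1.27), 26 at 24 h (median -0.42) and 33 at 48 h (median -2.09). The additive fit of 8 libraries called 27. Relative to the mean ATP library the list median was -0.53 and -0.56 in ENPP1+ATP at 24 h and -1.82 and -1.88 at 48 h, and it lay between -0.19 and 0.23 in ATP.

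Hmgcs1 (chr13:119690379-119708260, plus strand), described because its promoter holds the SREBP letters and chosen after its values were seen, was at 217 and 226 against 488 and 492 CPM at 24 h and at 87.6 and 89.2 against 612 and 657 CPM at 48 h. It fell 2.21-fold at 24 h and 7.17-fold at 48 h (mean log2 -1.99, SE 0.04, adjusted p = 3.49e-20). Tm7sf2, a sterol reductase (chr19:6062821-6068373, minus strand), was at 15.7 and 17.7 against 42.3 and 40.8 CPM and at 3.17 and 4.06 against 60.8 and 68.9 CPM, 2.48-fold and then 18.1-fold lower. Lss, lanosterol synthase (chr10:76531588-76557138, plus strand), was at 314 and 308 against 351 and 325 CPM at 24 h, where the test was not passed (log2 -0.12, adjusted p = 0.102), and at 56.0 and 53.9 against 389 and 454 CPM at 48 h (-2.94, adjusted p = 1.46e-20). Idi1, isopentenyl diphosphate isomerase (chr13:8885501-8892451, plus strand), followed the same course, at 152 and 145 against 149.6 and 149.6 CPM (log2 -0.01, adjusted p = 0.955) and then 30.7 and 26.8 against 179.6 and 195 CPM (-2.70, adjusted p = 2.34e-14). The mean of both times lost its call in the additive fit for Lss (adjusted p = 0.0726) and Idi1 (0.0905). Fdps, farnesyl diphosphate synthase, was at 18.7 and 18.1 against 33.9 and 30.5 CPM and at 3.26 and 2.81 against 41.4 and 45.8 CPM, and its counts are uncertain because near-identical copies can share its reads.

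**Figure D3:**
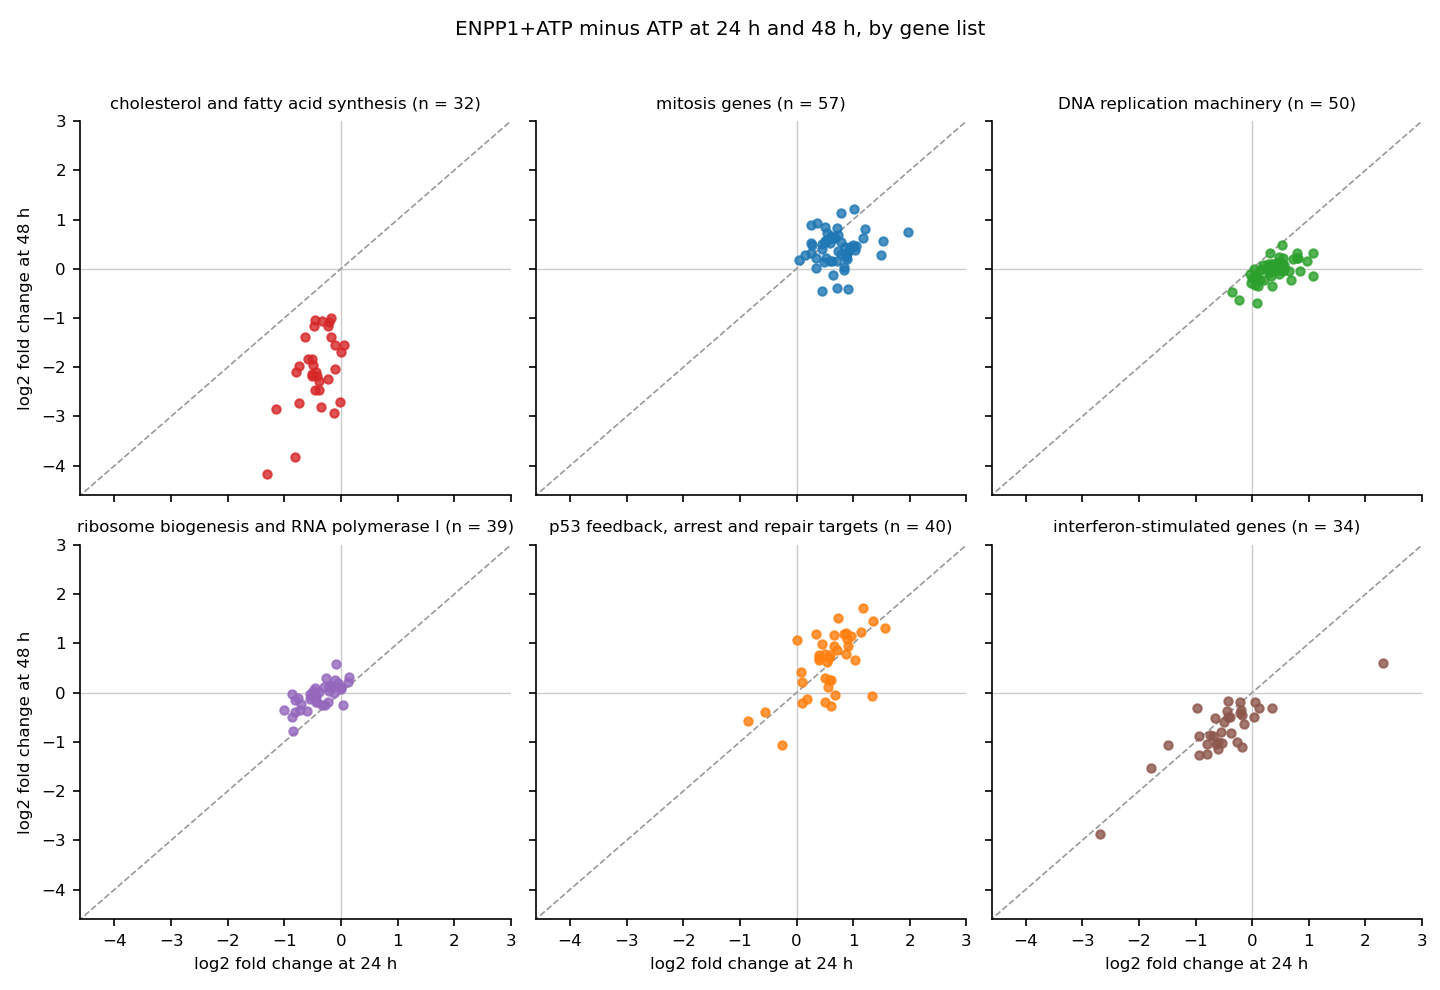
Log2 difference between ENPP1+ATP and ATP at 48 h (vertical axis) against 24 h (horizontal axis) for genes of 6 lists, with a dashed line where both are equal. Cholesterol genes lie far under the line (medians -0.42 at 24 h and -2.09 at 48 h), mitosis genes mostly under it and above 0 (0.71 and 0.45), and ribosome biogenesis genes above it (-0.43 and -0.03).

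ISGs fell in ENPP1+ATP. In the mean of both times 30 of 34 genes fell and 1 rose (median log2 difference -0.61), and Ifnb1, Xaf1 and Irf9 did not pass the test. At 24 h 24 fell and 3 rose, and at 48 h 31 fell and 1 rose. Relative to the mean ATP library the list median was -0.38 and -0.11 in ENPP1+ATP at 24 h and -1.05 and -0.82 at 48 h, against 0.32 and 0.25 and then -0.25 and -0.27 in ATP, so that both media were lower at 48 h. Mx1, an antiviral GTPase (chr16:97447035-97462907, minus strand), was at 12.6 and 18.4 against 98.6 and 101 CPM and at 3.74 and 7.95 against 48.1 and 36.2 CPM. It was 6.87-fold lower (log2 -2.78, SE 0.30, adjusted p = 1.31e-05), and no library overlapped, although the replicates at 48 h were wide apart. Oas3 (chr5:120753098-120777661, minus strand), whose ISRE match is printed above, was at 29.8 and 46.3 against 133 and 130.2 CPM and at 13.9 and 22.8 against 56.4 and 48.6 CPM, 3.16-fold lower (adjusted p = 9.97e-05). Zbp1, a sensor of Z-form nucleic acid, was at 93.6 and 135 against 380.1 and 370.1 CPM and at 34.0 and 48.2 against 227 and 199.9 CPM, 4.14-fold lower (log2 -2.05, SE 0.19). The member that rose in the mean of both times was Ifi27, a mitochondrial ISG product (chr12:103434211-103440239, plus strand), at 496 and 454 against 96.4 and 94.9 CPM and at 195 and 169 against 119 and 123 CPM (log2 1.45, SE 0.05, adjusted p = 1.39e-14).

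Among cytokine and chemokine genes 18 of 38 fell and 8 rose (median log2 difference -0.40). Ccl9 was at 7.29 and 7.24 against 19.3 and 14.5 CPM and at 5.92 and 6.95 against 16.5 and 20.6 CPM, and Cxcl5, a chemokine for neutrophils, at 15.8 and 15.4 against 46.7 and 36.7 CPM and at 38.9 and 28.0 against 53.8 and 71.7 CPM. Both fell (log2 -1.37 and -1.16, adjusted p = 4.64e-09 and 3.14e-04), as did Il6 (-1.08). Icam1, an adhesion molecule for leukocytes, was at most 2.07 CPM and rose (log2 1.88, SE 0.35, adjusted p = 6.57e-05).

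ATF4 targets of the amino acid response fell. Of 37 genes 31 fell and 5 rose (median log2 difference -0.57), 27 fell at 24 h and 30 at 48 h. Atf4 itself stood at 486 and 485 against 605 and 543 CPM and at 282 and 271 against 537 and 631 CPM, lower in each library and more so at 48 h (log2 -0.24 and -1.08, adjusted p of the change = 3.03e-07). Cth, which makes cysteine from cystathionine (chr3:157894248-157925077, minus strand), was at 16.7 and 17.7 against 39.4 and 38.5 CPM and at 9.57 and 9.44 against 35.8 and 38.5 CPM (log2 -1.57, SE 0.08, adjusted p = 8.70e-14). Slc7a11 (chr3:49892526-50443614, minus strand), whose CARE matches are printed above, was at 23.5 and 33.9 against 57.4 and 67.0 CPM and at 14.2 and 14.4 against 46.2 and 48.8 CPM (log2 -1.42, SE 0.10, adjusted p = 4.44e-09). Aldh1l2, of mitochondrial folate metabolism (log2 -1.54), Stc2, a secreted glycoprotein (-1.45), and Trib3, a pseudokinase (-1.35), fell as well. Against them Cbs, which makes the cystathionine that Cth uses (chr17:31608894-31637238, minus strand), rose from 1.72 and 1.61 to 4.63 and 4.26 CPM at 24 h and from 3.27 and 2.4 to 9.94 and 8.58 CPM at 48 h (log2 1.56, SE 0.14, adjusted p = 1.30e-09). The other rises were Atf3 (0.89) and Sesn2 (0.58), which also answer p53, Ddit4 (0.20) and Ppp1r15a (0.12), and Ddit3, the CHOP factor, had a log2 difference of 0.01 that did not pass the test.

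Ribosome biogenesis genes fell in 26 of 39 cases and rose in 3 (median log2 difference -0.23), with 30 falls at 24 h and 13 at 48 h, or 8 at 48 h without ATP 48 h replicate 2. Fbl, the methyltransferase fibrillarin of the nucleolus, was at 41.0 and 39.9 against 83.2 and 78.5 CPM at 24 h and at 49.9 and 51.5 against 64.2 and 64.6 CPM at 48 h, apart at both times but less at 48 h (change 0.65, adjusted p = 1.03e-06). Gar1, of the pseudouridylation particles, fell by 0.81 on the log2 scale. Glycolysis and hypoxia genes fell in 18 of 27 cases and rose in 1 (median -0.29). Hk2, hexokinase 2, was at 30.4 and 32.5 against 65.8 and 63.0 CPM and at 24.7 and 25.6 against 49.9 and 53.5 CPM, 2.05-fold lower. Of 13 mitochondrially encoded messenger RNAs 6 rose and 3 fell (median 0.08), in libraries whose share of mitochondrial reads was higher.

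Collagens and their modifying enzymes fell. Of 34 genes 26 fell and 3 rose (median log2 difference -0.36), with 18 falls at 24 h and 27 at 48 h. Col3a1, type III collagen (chr1:45311538-45349706, plus strand), was at 594 and 577 against 1231 and 1097 CPM and at 729.9 and 754 against 1847 and 1818 CPM, without overlap and 2.22-fold lower (log2 -1.15, SE 0.05, adjusted p = 2.54e-15). Col1a1, type I collagen, was at 2336 and 2245 against 3036 and 2915 CPM and at 2184 and 2376 against 3605 and 3555 CPM (log2 -0.51, SE 0.04, adjusted p = 1.92e-11). Lox, the collagen cross-linking oxidase, was at 184 and 204 against 396 and 413 CPM and at 206 and 224 against 636 and 684 CPM (log2 -1.34, SE 0.05, adjusted p = 5.29e-15). The rises were in Loxl4 (0.28), Plod2 (0.25) and Plod1 (0.13), enzymes that modify collagen chains. Other matrix glycoproteins fell in 23 of 37 cases and rose in 7 (median -0.31). Ogn, a small proteoglycan, was at 10.9 and 12.7 against 56.4 and 58.2 CPM and at 26.3 and 25.2 against 53.3 and 54.1 CPM, 3.18-fold lower. Fbn2, fibrillin-2 (-1.43), and Comp (-1.19, a call lost in the additive fit) fell, and Ltbp2, a latent TGF-β binding protein (1.12), and Prelp (0.91) rose. These lists share genes with the fibroblast markers, whose sum was lower in ENPP1+ATP.

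TGF-β, Wnt and growth factor genes fell in 23 of 40 cases and rose in 7 (median log2 difference -0.37), and the additive fit called 1 higher. Tgfbi, a TGF-β-induced matrix protein, was at 19.4 and 19.4 against 60.7 and 52.4 CPM and at 26.1 and 34.4 against 90.6 and 85.8 CPM (log2 -1.54, SE 0.07, adjusted p = 4.97e-13). Gas1, a gene of growth arrest, was at 46.1 and 40.0 against 192 and 165 CPM and at 135 and 99.4 against 228 and 315 CPM (log2 -1.63, SE 0.19, adjusted p = 3.08e-05), and Id3, an inhibitor of differentiation, fell by 1.29 on the log2 scale. Contractile and myofibroblast genes went the other way, with 14 of 22 rising and 3 falling (median 0.27), 9 rising at 24 h and 14 at 48 h. The 9 at 24 h became 5 without ENPP1+ATP 24 h replicate 2. Acta2, smooth muscle α-actin, was at 28.1 and 32.4 against 30.1 and 28.2 CPM at 24 h, with overlap (log2 0.05, adjusted p = 0.643), and at 85.8 and 88.9 against 54.4 and 57.5 CPM at 48 h, without it (0.64, adjusted p = 1.17e-07). Des, desmin, was at 1.88 and 2.65 against 1.18 and 1.21 CPM and at 6.47 and 8.58 against 1.59 and 1.74 CPM (log2 1.55, SE 0.18). Of the proteases, Plau, the urokinase, rose (1.08, SE 0.10), from 11.4 and 11.5 to 21.5 and 22.0 CPM at 24 h and from 11.3 and 10.3 to 23.5 and 27.3 CPM at 48 h, and Adamts1 fell (-1.06).

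Immediate-early genes, which respond to growth factors and stress within minutes, rose in 16 of 25 cases and fell in 3 (median log2 difference 0.41), with 17 and 3 at 24 h (median 0.83) and 9 and 6 at 48 h (0.32). Fos (chr12:85473890-85477273, plus strand) was at 39.2 and 36.6 against 5.05 and 4.98 CPM at 24 h and at 11.8 and 10.3 against 5.81 and 4.27 CPM at 48 h. It was high in both ENPP1+ATP libraries at 24 h and less so at 48 h (log2 2.92 and 1.12, adjusted p of the change = 6.70e-07). Egr1, a zinc-finger factor, was at 459 and 486 against 107 and 107 CPM and at 124 and 122 against 70.7 and 56.7 CPM (mean log2 1.55, SE 0.13, adjusted p = 1.23e-06).

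**Figure D4:**
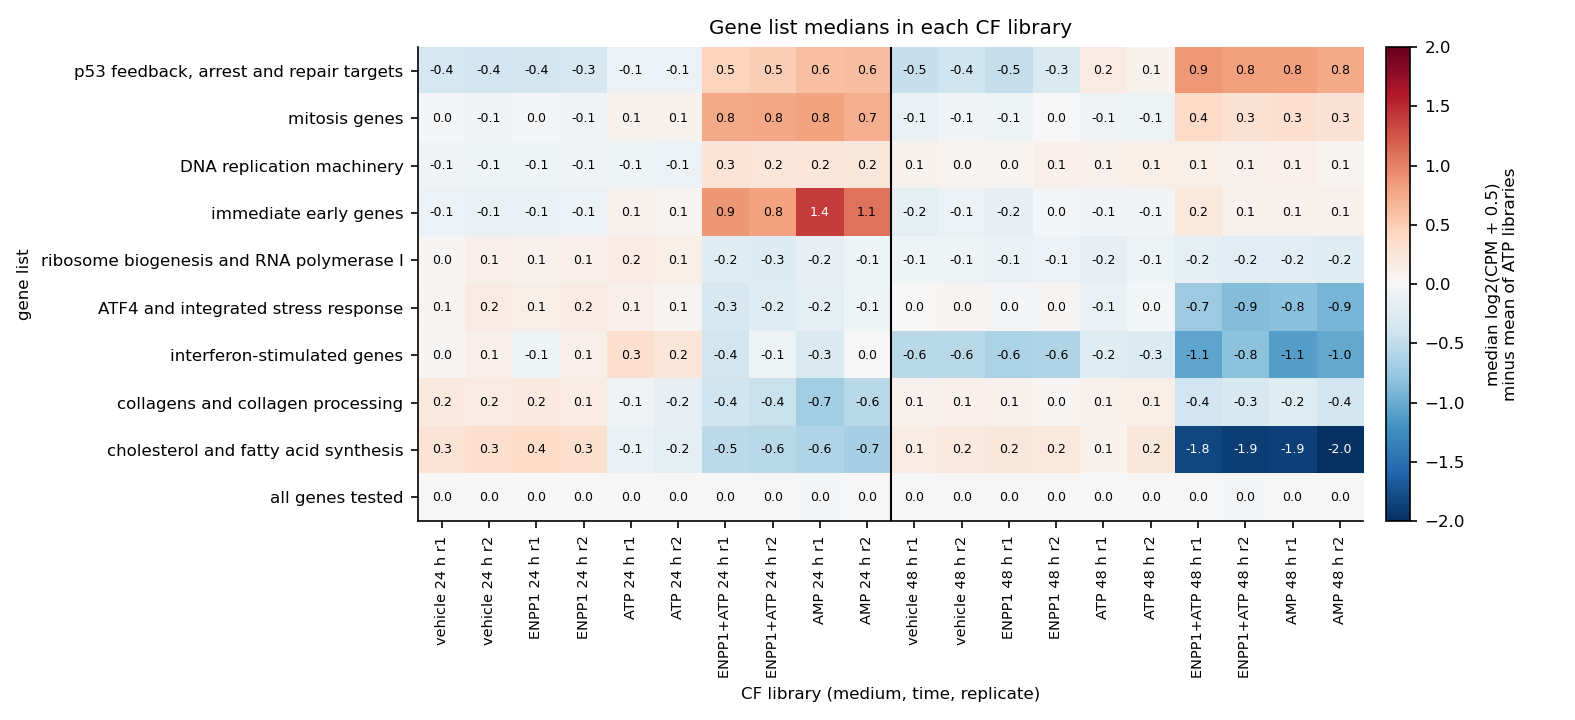
Median log2 CPM of gene lists in each CF library relative to the mean of the 4 ATP libraries, as colour, with libraries grouped by medium and time. The cholesterol list is at -1.82 and -1.88 in the ENPP1+ATP 48 h libraries and the immediate-early list at 0.89 and 0.81 in those of 24 h.

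Over all genes, the largest rises among genes of at least 2 in mean log2 CPM were Angptl4, Robo3, Ces2f, Matn4, Ppp2r2c, Nkx2-9, Tnfrsf18, Svop, Atg9b and Ckmt1 (log2 2.57 to 3.08). Angptl4, a secreted inhibitor of lipoprotein lipase (chr17:33773750-33781830, minus strand), was at 7.78 and 8.01 against 3.87 and 3.75 CPM at 24 h and at 124 and 116 against 3.9 and 2.95 CPM at 48 h. The rise was 2.07-fold at 24 h and 34.7-fold at 48 h (change log2 4.06, SE 0.19, adjusted p = 8.89e-14). Robo3, an axon guidance receptor (chr9:37415669-37433246, minus strand), was at 32.3 and 29.0 against 3.94 and 3.37 CPM and at 38.5 and 49.5 against 6.87 and 4.42 CPM, 8.02-fold higher. Matn4, a matrilin of the matrix, was 6.93-fold higher. The 10 largest falls were Tm7sf2, Mx1, Mpeg1, Gm12250, Ifi206, Fdps, Tenm4, Gm13230, Lipg and Zbp1. Mpeg1, which encodes perforin-2, was at 2.99 and 3.1 against 24.4 and 23.0 CPM and at 0.918 and 1.24 against 6.55 and 6.09 CPM (log2 -2.76, SE 0.14, adjusted p = 7.93e-14), and is a gene of phagocytes that fell while Cd68 rose. Lipg, endothelial lipase, fell by 2.06 on the log2 scale.

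The difference between the media changed from 24 h to 48 h in 27.3% of genes, 2264 in the upward and 2615 in the downward direction. With total counts as the only scaling the split was 1673 and 3299. All 33 cholesterol genes moved downward, 38 of 50 replication genes and 32 of 57 mitosis genes did so with none and 7 in the other direction, and 25 of 39 ribosome biogenesis genes moved upward with 1 downward. Counting signs, 1830 genes were called higher and 2092 lower at both times, 276 lower at 24 h and higher at 48 h, and 321 the reverse. Alcam, a cell adhesion molecule, was at 9.4 and 9.8 against 3.5 and 3.19 CPM at 24 h and at 1.12 and 1.49 against 2.85 and 2.52 CPM at 48 h, so it passed from higher (log2 1.52) to lower (-1.05). Plxnc1, a semaphorin receptor, went from lower, 2.99 and 2.74 against 9.38 and 8.77 CPM, to 12.1 and 14.4 against 10.1 and 9.22 CPM (change 2.12, SE 0.24).

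Without ATP, ENPP1 made no detected difference. ENPP1 and vehicle MCndM differed in 0 genes of 17879 (0%) by the quasi-likelihood test and in 0 by DESeq2, with 819 genes (4.58%) at an unadjusted p under 0.05, a median absolute log2 difference of 0.06, and no list member called. Leaving out ENPP1 48 h replicate 2 gave 11 genes higher, and dropping the filter on low counts gave 66 higher and 81 lower. The test of whether the ENPP1 difference with ATP departed from that without ATP called 3104 genes higher and 3399 lower (36.4%). Of the lists, 33 of 33 cholesterol genes were lower, 54 of 57 mitosis genes higher, 32 of 40 p53 targets higher and 3 lower, 26 of 34 ISGs lower and 1 higher, and 30 of 37 ATF4 targets lower and 4 higher. For Mdm2 the difference with ATP was 1.38 on the log2 scale above the one without ATP, which was 0.07.

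**Figure D5:**
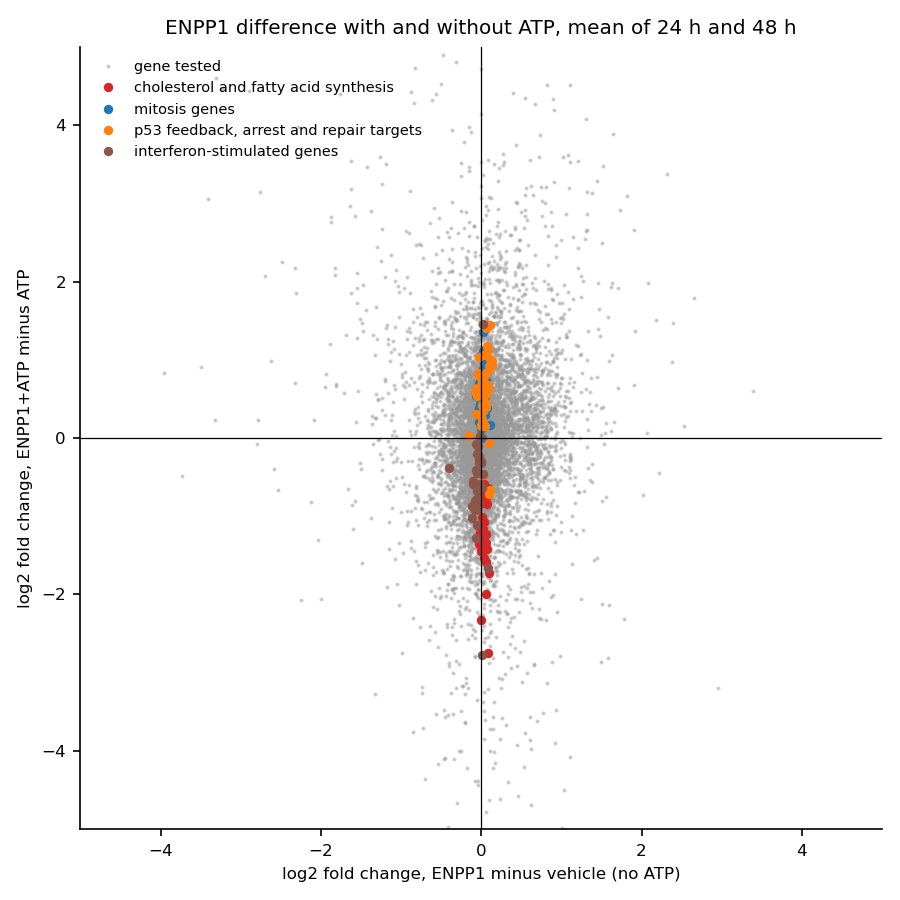
Log2 difference that ENPP1 made with ATP (ENPP1+ATP against ATP, vertical axis) and without it (ENPP1 against vehicle, horizontal axis), each the mean of both times, for the tested genes and 4 lists, with 12 genes outside the axes. Points spread along the vertical axis (median absolute difference 0.28) and stay near 0 on the horizontal one (0.06).

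ATP MCndM, the comparison group, was itself not equal to vehicle. Against vehicle 1569 genes were higher (8.78%) and 1438 lower (8.04%), 16.8% in all, or 886 lower without vehicle 48 h replicate 1. These values share the ATP libraries with the main comparison, so the differences are set side by side only. p53 targets were higher in ATP than in vehicle in 27 of 40 cases and lower in 2 (median log2 difference 0.33), mitosis genes higher in 20 of 57 and lower in none (0.07), cholesterol genes lower in 27 of 33 (-0.23), ISGs higher in 19 of 34 (0.23), chemokines higher in 17 of 38 and lower in 2 (0.35), collagens lower in 15 of 34 and higher in 1 (-0.15), and myofibroblast genes lower in 8 of 22. Mdm2 was higher by 0.87 and Oas3 by 1.32 on the log2 scale (Oas3 adjusted p = 1.81e-03), while Acta2 was lower (log2 -0.997). The largest differences were in Ly6c1, a lymphocyte antigen (log2 2.90), and Aspn, the proteoglycan asporin (-1.99).

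ENPP1+ATP MCndM was also set against AMP MCndM, its product given directly. Here 234 genes were higher (1.31%) and 283 lower (1.58%), 2.89% in all, with a median absolute log2 difference of 0.10. At an unadjusted p under 0.05 the number was 3384 genes (18.9%), and the adjusted counts depended on single libraries. They were 60 and 77 without ENPP1+ATP 24 h replicate 1, and 95 and 113 without AMP 48 h replicate 2. No ISG was called (0 of 34), and 0 higher and 7 lower of 40 p53 targets, 2 and 2 of 57 mitosis genes and 5 and 1 of 33 cholesterol genes. Immediate-early genes were lower in ENPP1+ATP in 12 of 25 cases (median log2 difference -0.20), among them Fos (-0.61, adjusted p = 8.72e-04). Mdm2 was lower by 0.20 (log2 -0.20, adjusted p = 2.18e-02), Matn4 lower (-0.76, adjusted p = 5.34e-03) and Col3a1 higher (0.37, adjusted p = 2.33e-04). Wisp2, a CCN-family matricellular gene, stood at 8.88 and 9.21 CPM in ENPP1+ATP and 4.06 and 3.56 CPM in AMP at 24 h, and at 9.41 and 8.47 against 8.99 and 5.69 CPM at 48 h (mean log2 0.78, adjusted p = 2.66e-04), apart at 24 h and overlapping at 48 h.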

How the data were processed

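RNA was sequenced from CFs after 24 h or 48 h in MCndM of 5 kinds (vehicle, ENPP1, ATP, ENPP1+ATP and AMP), with 2 libraries per medium and time. The authors deposited raw read counts per gene symbol for 30892 genes. The submitters' processing notes name STAR 2.5.3a and the mouse build mm10. The counting program, annotation and strand setting were not given in the sources used here, so reads of overlapping, antisense and near-identical genes cannot be told apart. Libraries were grouped by their labels alone.

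Counts were tested in R 4.3.3 with edgeR 4.0.16 (quasi-likelihood F test, robust fit, TMM scaling, filterByExpr, which kept 17879 genes), in 1 fit over all 20 CF libraries with a mean for each of 10 groups (10 residual degrees of freedom, biological coefficient of variation 0.059). Differences are log2 fold changes with standard errors, and p-values were Benjamini-Hochberg adjusted over all genes tested, with calls under 0.05. The script was tested on simulated data. DESeq2 1.42.0 was an alternative, besides other scalings, other filters, a fit of the compared libraries only, an additive fit, a block on replicate number and leaving out each library. CPM were scaled by TMM, and list medians per library used a pseudocount of 0.5 CPM. The replicates of each group differed by more than sampling noise (chi-square per degree of freedom 6.34 to 36.5).

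Named genes were the 10 largest rises and 10 largest falls (adjusted p under 0.05, mean log2 CPM of at least 2, no overlap within either time), the 3 largest called changes of each list with a fixed set of genes of p53, nucleotide, cell-cycle and matrix biology, the 5 largest rises and falls of the time, AMP and vehicle comparisons, and members that moved against their list. A few other list members were added after their values were seen. A few list members are counted in their lists but not reported here singly, and the plots of single genes may leave them out. The members and lists were chosen with earlier results of these data known. Gene positions are those of GENCODE vM21 on mm10, and promoters those of RefSeq on GRCm38.p6.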

Additional observations from a re-analysis of the deposited data

Results flagged for a closer look

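The difference between ENPP1+ATP and ATP MCndM changed between 24 h and 48 h in 2264 genes upward and 2615 downward (edgeR quasi-likelihood test of the interaction of medium and time, adjusted p under 0.05). The 5 largest downward changes of named genes on the log2 scale were in Fdps (-3.03), Tm7sf2 (-2.86), Lss (-2.82), Idi1 (-2.69) and Alcam (-2.57), and 4 of these 5 are genes of cholesterol synthesis. The 5 largest upward changes were in Angptl4 (4.06), Sprr1a (3.23), Prtg (2.19), Plxnc1 (2.12) and mt-Rnr1 (2.00). Sprr1a, a cornified envelope gene, was at 21.1 and 17.1 CPM in ENPP1+ATP against 43.6 and 20.0 CPM in ATP at 24 h and at 171 and 141 against 17.2 and 38.8 CPM at 48 h. Prtg, the receptor protogenin, was at 3.13 and 4.03 against 3.94 and 4.98 CPM and at 15.1 and 13.3 against 3.84 and 3.94 CPM. mt-Rnr1, a mitochondrial ribosomal RNA, was at 1753 and 2928 against 1761 and 1551 CPM and at 4873 and 5147 against 673 and 1102 CPM (adjusted p of the change = 2.04e-02).

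The ENPP1 difference with ATP departed from the ENPP1 difference without ATP in 3104 genes upward and 3399 downward, by the test of that interaction in the same fit.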

How the results depend on the processing

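The counts over all genes for ENPP1+ATP against ATP, at either time and in the mean, were within 1.5 times of the reported value under every alternative run. Counts within gene lists moved further, such as replication genes higher in the mean (35, or 19 in the additive fit), DNA damage genes lower (5, or 3) and ATF4 targets higher (5, or 3). With a library left out, the mean of both times gave 3717 to 4142 genes higher and 4259 to 4693 lower, 24 h gave 3025 to 3372 and 3114 to 3449, 48 h 2439 to 2957 and 3135 to 3627, the change between times 1695 to 2214 and 2091 to 2693, and the comparison with and without ATP 2652 to 3031 and 3095 to 3585. The additive fit of 8 libraries gave 2886 higher and 3165 lower. Total counts without scaling factors gave 4377 and 3486 at 24 h and 2917 and 4293 at 48 h. The median log2 difference over all genes stayed between -0.01 and 0.00 under the other scalings. For ENPP1 against vehicle, dropping the filter on low counts gave 66 higher and 81 lower, and leaving out a library 0 to 11 higher and 0 lower. For ATP against vehicle, leaving out a library gave 1073 to 1444 higher and 886 to 1167 lower. For ENPP1+ATP against AMP, dropping the filter gave 527 and 475, DESeq2 404 higher, the libraries of these media alone 46 and 95, and leaving out a library 60 to 337 and 77 to 388. The cause of these differences was not tested.

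The replicate numbers share only a number. The correlation of same-numbered deviations was 0.0006 at 24 h and -0.024 at 48 h between ENPP1+ATP and ATP, and a block on the replicate number gave 4293 genes higher and 4726 lower. Of 153 named genes, 125 kept direction and call under every alternative that gave them a value, since some low genes were not tested at a mean of at least 1 CPM. The additive fit lost 20 calls of the mean of both times, among them Ccnd1, Lss, Idi1 and Aprt. Ddit3 and Mcm2, which were not called, changed sign without the filter (log2 -0.0134 and -0.0149) and with some single libraries left out (-0.0200 to 0.0326 and -0.00639 to 0.0172). Genes under about 1 CPM, such as Cnn1, rest on few reads at this depth.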

Other observations

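Histone genes, a list added after values had been seen, were higher in ENPP1+ATP in 19 and lower in 5 of 57 tested cases (median log2 difference 0.66, and 0.14 to 0.86 over the alternatives), or 7 higher among those of at least 1 CPM in the mean and 8 lower without ENPP1+ATP 48 h replicate 1, and near-identical copies can share their reads. Genes of the NRF2 response (8 higher, or 5 in the additive fit, and 9 lower of 23, median -0.09) and of the heat shock and endoplasmic reticulum response (7 higher and 8 lower of 22, median -0.02) showed no common direction. Cnn1, calponin of smooth muscle, had 7 and 6 reads in ENPP1+ATP against 0 and 3 in ATP at 24 h, and 18 and 12 against 0 and 3 at 48 h.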
